A study of Schizosaccharomyces pombe
Saccharomyces cerevisiae with 8 samples.

Results

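The 10 genes described here encode core factors of cytoplasmic mRNA decay in budding yeast (Saccharomyces cerevisiae) and were taken by their systematic identifiers: XRN1, DCP1, DCP2, DHH1, PAT1, LSM1, CCR4, POP2, CDC39 and PAN2. All 10 had a value in total RNA, among 6518 features, and 5 of them (XRN1, PAT1, CCR4, CDC39 and PAN2) in the table of newly synthesized RNA, among 2822 listed features. The question addressed was whether the messages of the decay machinery fall as far as other messages when transcription is cut back. Auxin (3-indole acetic acid, 500 µM) or its carrier DMSO was given for 30 min, 4-thiouracil (5 mM) was then added for 6 min to label new RNA, and total RNA and purified labelled RNA were sequenced from 2 auxin and 2 DMSO samples each, 8 libraries in 4 groups. Every sample was of 1 strain (OsTIR1 MED14-IAA7 MED17-IAA7, strain GZY380, MATalpha), in which the rice auxin receptor OsTIR1 is driven by the GPD1 promoter and both MED14 and MED17 carry an IAA7 degron, so the DMSO cells share the tags and the receptor. The same strain carries ade2, his3, leu2, lys2, met15, trp1 and ura3 mutations, with HIS3 and URA3 restored as markers. MED14 and MED17 encode structural subunits of Mediator, the coactivator that links regulators to RNA polymerase II. No untagged strain given auxin was analysed here.

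A yeast message is usually destroyed in an ordered way. Its poly(A) tail is shortened first, by the Pan2-Pan3 and Ccr4-Not nucleases. Dhh1, Pat1 and the Lsm1 to Lsm7 ring then help the Dcp1-Dcp2 enzyme to remove the 5′ cap, and the exonuclease Xrn1 digests the body of the message. Because this machinery is itself made from messages, its own RNA is subject to the decay that it carries out. All 10 genes were annotated as components of the P-body, the cytoplasmic granule in which decapping factors gather, in the deposited annotation. They lie on 7 chromosomes (I, III, IV, VII, X, XIV and XV), and 0 of the 10 overlapped another feature of the total RNA table. Their listed coding lengths ran from 519 bases for LSM1 to 6327 bases for CDC39.

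In total RNA the library sums were 10862028 and 13970025 counts in auxin and 17491251 and 13004246 counts in DMSO. The members had between 171 and 16983 raw counts per library. The sums over the listed features of newly synthesized RNA were 4817883 and 5882137 counts in auxin and 13125438 and 15744423 counts in DMSO, and are not full depths. Total RNA of MED14 (listed as RGR1) had normalized counts of 1294 and 1564 in auxin, against 3249 and 3667 in DMSO, and that of MED17 (listed as SRB4) had 617 and 742 in auxin, against 2270 and 2812 in DMSO. These RNA values say nothing of the loss of either tagged protein. As a check of the strain, 3 alpha-cell genes had 569 to 4608 raw counts in total RNA and 4 a-cell genes had 0 to 67. The deleted genes ADE2 and TRP1 had 1 to 15 raw counts, and the other 3 deleted genes were not analysed here.

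All 10 members fell in total RNA with the authors' scaling. TMM scaling assumes that most features do not change, so its values are relative to the typical feature. With it 3 members were called lower (PAT1, CCR4 and PAN2), 3 higher (XRN1, DHH1 and CDC39) and 4 were not called. Of the 5589 features tested, 1805 were called lower with TMM scaling and 1652 higher, so these member counts are near the background. The members differed widely in how far they fell: XRN1 and DHH1 kept most of their RNA, CDC39 kept more than the median feature, and PAN2 and PAT1 kept least. A call is an adjusted p below 0.05 in edgeR's quasi-likelihood test with Benjamini-Hochberg adjustment over all 5589 features tested. With the authors' scaling 92.3% of those features were called lower (93.0% in either direction), so the share of 10 in 10 is close to the background. The median log2 fold change of auxin over DMSO was -1.73 over the members, with a range of -2.30 to -0.56, and -1.85 over all features. The median member stood at 27.0% and 32.2% of its DMSO mean in the 2 auxin libraries, and the median feature at 25.6% and 29.9%. For every member both auxin libraries lay below both DMSO libraries, as they did for 94.6% of all features. Values are counts divided by the authors' size factors, whose basis is not given in the sources used here, so that fewer cells and less RNA per cell cannot be told apart. SDs below are over 2 libraries. The p-values come from 2 samples per group, with each feature's spread estimated partly from that of all features tested.

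XRN1 (YGL173C, chromosome VII 175527 to 180113, sacCer3) encodes the exonuclease that degrades decapped messages. Its normalized counts in total RNA were 9748 and 11653 in auxin, against 15529 and 16002 in DMSO. The auxin libraries stood at 61.8% and 73.9% of the DMSO mean, and the log2 fold change was -0.56 (SE 0.202, edgeR adjusted p = 6.24e-03). XRN1 fell the least of the 10, and 90.3% of all tested features had a lower fold change. This call was lost without DMSO replicate 1 (adjusted p = 0.0506), without DMSO replicate 2 (adjusted p = 0.0736) and without auxin replicate 1 (adjusted p = 0.115), with log2 fold changes of -0.58, -0.54 and -0.44 in edgeR.

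The decapping enzyme genes lay close to the median feature. DCP2 (YNL118C, chromosome XIV 402652 to 405564), the catalytic subunit, had normalized counts of 1206 and 1194 in auxin, against 4259 and 4593 in DMSO, a log2 fold change of -1.88 (SE 0.200). DCP1 (YOL149W, chromosome XV 44938 to 45633), its partner subunit, had 240.5 and 274 in auxin, against 748 and 821 in DMSO, a log2 fold change of -1.60 (SE 0.195). DCP2 thus stood 3.69-fold lower in auxin and DCP1 3.04-fold lower, and 48.0% and 62.5% of all features had lower fold changes than DCP2 and DCP1.

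The 3 activators of decapping fell to very different extents. DHH1 (YDL160C, chromosome IV 170410 to 171930), a DEAD-box helicase that represses translation and promotes decapping, had normalized counts of 1663 and 2167 in auxin, against 2794 and 3128 in DMSO. Its log2 fold change was -0.63 (SE 0.193, edgeR adjusted p = 1.32e-03), and 89.1% of features had a lower one. The call was lost without DMSO replicate 2, at -0.54 (edgeR adjusted p = 0.0833). LSM1 (YJL124C, chromosome X 187126 to 187644), the subunit that sets the cytoplasmic Lsm ring apart from the nuclear one, had 163 and 243 in auxin, against 640 and 628 in DMSO, a log2 fold change of -1.64 (SE 0.198). LSM1 had the widest relative gap between its auxin libraries among the members. PAT1 (YCR077C, chromosome III 250238 to 252628), which bridges deadenylated messages to the decapping enzyme, had 169 and 203 in auxin, against 988 and 784 in DMSO. PAT1 was 4.76-fold lower (log2 fold change -2.25, SE 0.201), and 26.0% of features fell further.

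Among the deadenylase genes, CDC39 stood less far below its DMSO level than CCR4, POP2 or PAN2. CDC39 (YCR093W, chromosome III 280117 to 286443), also called NOT1, is the scaffold of the Ccr4-Not complex. It had normalized counts of 2514 and 2934 in auxin, against 6223 and 6577 in DMSO, a log2 fold change of -1.23 (SE 0.199), and 76.4% of features fell further. CCR4 (YAL021C, chromosome I 110846 to 113359), the main deadenylase of that complex, had 312 and 375 in auxin, against 1454 and 1394 in DMSO, a log2 fold change of -2.05 (SE 0.194). POP2 (YNR052C, chromosome XIV 719346 to 720647), the nuclease of the DEDD superfamily in the same complex, had 585 and 647 in auxin, against 2021 and 2362 in DMSO, a log2 fold change of -1.83 (SE 0.195). These 3 subunits of 1 complex ranged from 2.35-fold lower for CDC39 through 3.56-fold for POP2 to 4.14-fold for CCR4. The differences between these genes were not tested. Another 7 deadenylation genes, described below, had log2 fold changes from -2.91 to -1.39. PAN2 (YGL094C, chromosome VII 331118 to 334465), the catalytic subunit of the Pan2-Pan3 nuclease, had 695 and 857 in auxin, against 3580 and 4042 in DMSO. PAN2 fell the furthest of the 10, by 4.91-fold (log2 fold change -2.30, SE 0.202).

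**Figure D1:**
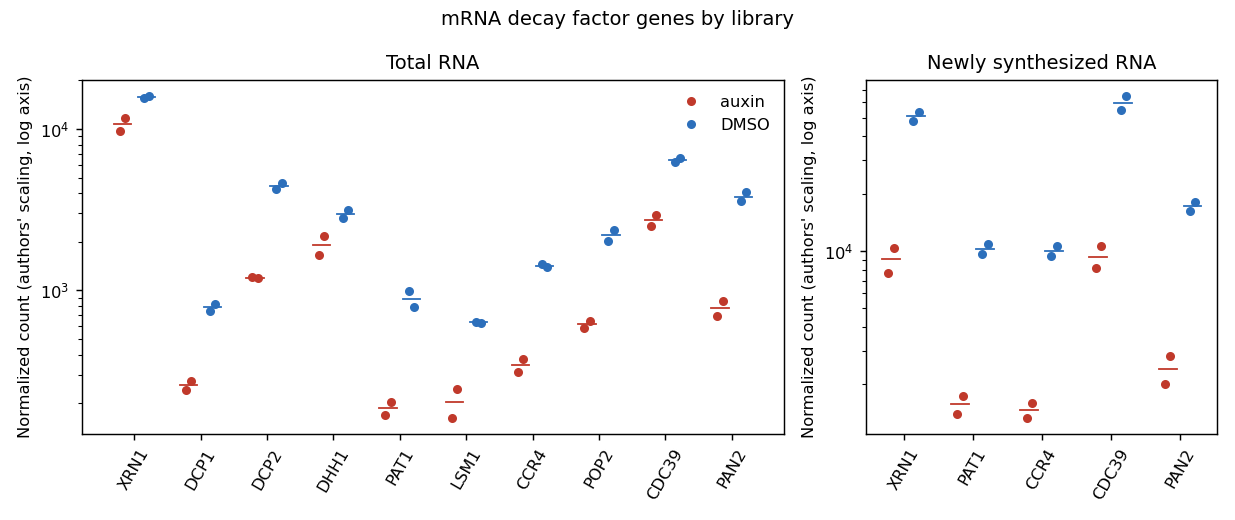
Normalized counts (authors' scaling, log axis) of each mRNA decay factor gene in total RNA (left) and of the 5 listed in newly synthesized RNA (right). Points are libraries, auxin left of DMSO, and short lines are means of 2 libraries. Both auxin libraries lie below both DMSO libraries for every gene shown on this scaling, with the narrowest gaps for XRN1 and DHH1 in total RNA.

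How far a member fell was set beside its abundance. Per kb of coding length, total RNA in DMSO was highest for XRN1 (3437 ± 72.8 normalized counts per kb) and lowest for PAT1 (371 ± 60.4). The order between them in DMSO was DHH1 (1946), POP2 (1683), DCP2 (1519), LSM1 (1221), PAN2 (1138), DCP1 (1127), CDC39 (1012) and CCR4 (566). The ranges of neighbours overlapped between POP2 and DCP2 and between PAN2 and DCP1. In auxin XRN1 (2333 ± 294) and DHH1 (1259 ± 234) were again first and PAT1 (77.9 ± 10.0) last, whereas POP2, CDC39, DCP2, LSM1 and DCP1 lay between 473 and 370 with overlapping neighbours, and PAN2 (232) and CCR4 (137) stood below them. CDC39, the eighth of the members in DMSO, was thus the fourth in auxin, and PAN2, the sixth in DMSO, was the eighth in auxin.

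When the 5589 features were put into 10 classes by level per kb in DMSO, the median log2 fold change in total RNA was -2.15 in the third class, -1.85 in the seventh, -1.33 in the ninth and -0.53 in the tenth. XRN1 and DHH1 were in the ninth class, where their log2 fold changes lay 0.77 and 0.70 above the class median, and 86.6% and 83.5% of that class fell further. CDC39, in the seventh class, lay 0.62 above its class median, with 84.3% of the class below it. PAN2, in the same class, lay 0.44 below that median, with 17.5% of the class below it. The remaining 6 members lay within 0.25 of the medians of their classes: DCP1 at 0.25 and LSM1 at 0.02 above, and CCR4 at 0.04, PAT1 at 0.16, POP2 at 0.17 and DCP2 at 0.22 below. These distances are descriptions and were not tested.

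**Figure D2:**
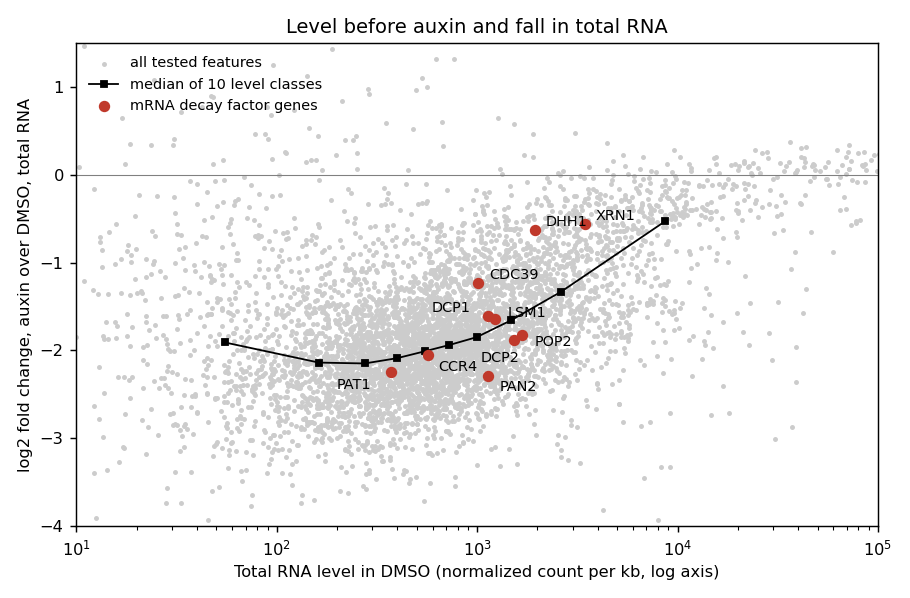
Log2 fold change of auxin over DMSO in total RNA (authors' scaling) against level in DMSO (normalized counts per kb, log axis) for all tested features (grey; those outside the axes are not drawn) and the 10 mRNA decay factor genes (red). Squares join the medians of the 10 level classes, from -1.91 in the lowest to -0.53 in the highest. XRN1, DHH1 and CDC39 lie above the line of medians and PAN2 below it.

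Whether a member fell as far as other features was tested with median-of-ratios scaling, in which the typical feature is set near 0 (median over all features -0.02) and a value above 0 means a smaller fall than the typical feature. On this relative scale XRN1, DHH1 and CDC39 were higher, PAN2 and PAT1 were lower, and DCP1, LSM1, POP2, DCP2 and CCR4 were not called. Of all features tested, 32.4% were called higher and 27.6% lower in this comparison (60.0% in either direction), so the 3 higher and 2 lower among 10 members are near the background. The members' median was 0.10.

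On the relative scale XRN1 had scaled counts of 19975 and 20335 in auxin, against 8513 and 8148 in DMSO, a log2 difference of 1.27 (SE 0.0818, edgeR adjusted p = 3.04e-06). DHH1 had scaled counts of 3408 and 3782 in auxin, against 1531 and 1593 in DMSO, a difference of 1.20 (SE 0.0831, edgeR adjusted p = 4.37e-06). CDC39 had scaled counts of 5151 and 5120 in auxin, against 3411 and 3349 in DMSO, a difference of 0.60 (SE 0.0732, edgeR adjusted p = 1.51e-04). These 3 calls held in each of the alternatives run, including the omission of any 1 library, where XRN1 ranged from 1.24 to 1.31, DHH1 from 1.13 to 1.28 and CDC39 from 0.59 to 0.62.

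PAN2 fell further than the typical feature, with scaled counts of 1424 and 1495 in auxin, against 1962 and 2058 in DMSO, a difference of -0.46 (SE 0.0777, edgeR adjusted p = 1.06e-03). This call also held in each alternative run. PAT1 had scaled counts of 347 and 354 in auxin, against 542 and 399 in DMSO, a difference of -0.43 (SE 0.154, edgeR adjusted p = 0.0391). The DMSO libraries of PAT1 were far apart: without DMSO replicate 1 the difference was -0.19 (edgeR adjusted p = 0.264), and the call was also lost without auxin replicate 1 (adjusted p = 0.141), without auxin replicate 2 (adjusted p = 0.111) and by DESeq2 (adjusted p = 0.0509).

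The members that were not called lay nearer to the typical feature. DCP1 stood at 0.23 (SE 0.0949, edgeR adjusted p = 0.0645), LSM1 at 0.18 (SE 0.134), POP2 at 0.01 (SE 0.0838) and DCP2 at -0.04 (SE 0.0935). CCR4 stood at -0.22 (SE 0.0940, edgeR adjusted p = 0.0705) and was called lower without DMSO replicate 2 (-0.30, edgeR adjusted p = 0.0190) and with TMM scaling (-0.30, edgeR adjusted p = 0.0283), whereas without DMSO replicate 1 it stood at -0.13 (edgeR adjusted p = 0.340). The groups of POP2, DCP2 and LSM1 overlapped on this scale and those of DCP1 and CCR4 did not, where 81.2% of all features had groups apart in either direction.

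The other genes of mRNA decay, 39 in number, were of deadenylation, decapping, nonsense-mediated decay, the exosome and Ski complexes, and nuclear 5′ end decay. All 39 fell in total RNA with the authors' scaling, where 92.3% of all features did, with a median log2 fold change of -1.71. On the relative scale 13 were higher, 6 lower and 20 not called, with a median of 0.12, and over all features 32.4% were higher and 27.6% lower. The counts by class below are small and are given as descriptions. Factors of nonsense-mediated decay, the pathway that removes messages with premature stop codons, had 3 higher (NAM7, which is UPF1, at 0.45, NMD2 at 0.41 and EBS1 at 0.34) and 0 lower among 4, and UPF3 stood at -0.02. The deposited description gives EBS1 a paralog, so its value is uncertain where reads match both copies. The other deadenylation genes had 1 higher and 2 lower among 7, the other decapping genes 4 and 1 among 11, the exosome and Ski genes 4 and 3 among 14, and the nuclear 5′ end decay genes 1 (RAT1, the nuclear 5′ to 3′ exonuclease, at 0.51) and 0 among 3.

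The highest relative values among these other genes were of YLR398C, annotated as the helicase of the Ski complex that feeds messages to the exosome (1.16, SE 0.0878), SKI3, a scaffold of the same complex (1.01, SE 0.0796), and YDR378C, annotated as an Lsm ring protein (0.97, SE 0.0974). In total RNA with the authors' scaling these genes fell, with log2 fold changes of -0.68, -0.83 and -0.87. SKI8, the third subunit of the Ski complex, was not called on the relative scale (-0.21, SE 0.0891). The lowest relative values were of YNL288W, annotated as a Ccr4-Not component that binds Cdc39 (-1.09, SE 0.205), YDL111C, annotated as an exosome core subunit (-0.62, SE 0.103), and EDC2, an RNA-binding activator of decapping whose reads may be shared with its paralog EDC1 (-0.57, SE 0.149). YNL288W had normalized counts of 24.7 and 42.0 in auxin, against 249 and 261 in DMSO. Each of these 6 differences had an edgeR adjusted p of 0.0101 or less.

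**Figure D3:**
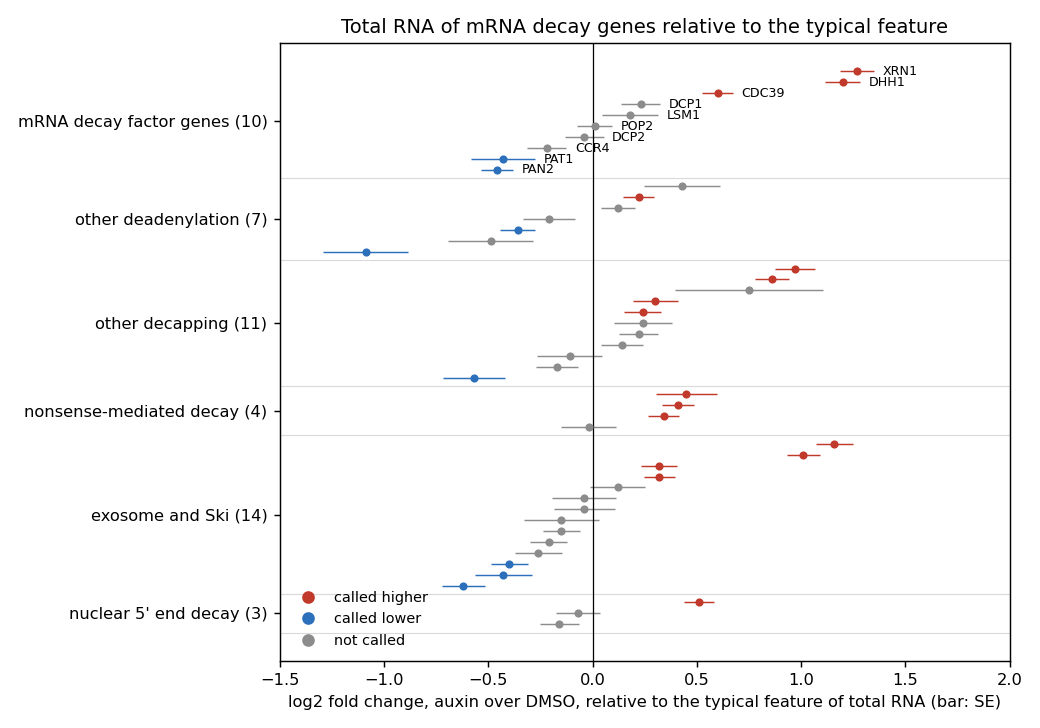
Log2 fold change of auxin over DMSO in total RNA relative to the typical feature (median-of-ratios scaling), with the SE of the fit as bars, for the 10 mRNA decay factor genes and 39 other decay genes by class. Red and blue are genes called higher and lower at an edgeR adjusted p below 0.05, and grey genes were not called. XRN1 and DHH1 stand near 1.2, and each class but the 2 smallest holds genes on both sides of 0 that were called.

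In newly synthesized RNA the 5 listed members stood at 5.62-fold (XRN1) to 7.10-fold (PAN2) lower in auxin. The table holds features with the lowest p-values of the authors (none above 1.64e-31 in the authors' deposited table), and 100% of its features were called lower, so that the fall of the 5 was settled by the listing and is a description. Their median log2 fold change was -2.71, against -2.80 over all listed features, and their range was -2.83 to -2.49. The highest log2 fold change in the authors' deposited table was -2.20, so the listing also bounds that range, which cannot be set against the range in total RNA. XRN1 had normalized counts of 7651 and 10407 in auxin, against 48153 and 53390 in DMSO, a log2 fold change of -2.49 (SE 0.232). CDC39 had 8126 and 10577 in auxin, against 54540 and 64878 in DMSO, a log2 fold change of -2.67 (SE 0.231). Per kb, new RNA in DMSO was 11069 ± 807 normalized counts for XRN1 and 9437 ± 1155 for CDC39.

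PAT1 had normalized counts in newly synthesized RNA of 1393 and 1749 in auxin, against 9698 and 10826 in DMSO, a log2 fold change of -2.71 (SE 0.262). CCR4 had 1340 and 1601 in auxin, against 9376 and 10655 in DMSO, a log2 fold change of -2.77 (SE 0.263). PAN2 had 1999 and 2827 in auxin, against 16183 and 18103 in DMSO, a log2 fold change of -2.83 (SE 0.258). The auxin libraries of the 5 members thus lay between 11.7% and 20.5% of the DMSO means. Per kb the order in DMSO was XRN1, CDC39, PAN2 (5120 ± 405), PAT1 (4292 ± 334) and CCR4 (3984 ± 360), with overlapping ranges for PAT1 and CCR4 alone.

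Relative to the typical listed feature, XRN1 was higher in newly synthesized RNA by 0.30 (SE 0.0595, edgeR adjusted p = 4.86e-03), with scaled counts of 22526 and 24664 in auxin, against 19368 and 19051 in DMSO. Its groups did not overlap on this scale, which held for 75.4% of listed features in one direction or the other. In this comparison 22.0% of the listed features were called higher and 24.3% lower (46.4% in either direction). CDC39 (0.12, SE 0.0554), PAT1 (0.09, SE 0.0585), CCR4 (0.03, SE 0.0598) and PAN2 (-0.04, SE 0.0725) were not called. CDC39 was called higher without auxin replicate 1 (0.15, edgeR adjusted p = 0.0119), and PAN2 was called lower without auxin replicate 2 (-0.14, edgeR adjusted p = 0.0375) and stood at 0.05 without auxin replicate 1.

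The change in total RNA was set against that in newly synthesized RNA of the same gene, by an interaction of fraction and treatment over all 8 libraries. With the authors' scaling XRN1 fell less in total RNA than in newly synthesized RNA by 1.93 on the log2 scale (SE 0.273, edgeR adjusted p = 1.32e-11), and CDC39 by 1.44 (SE 0.273, edgeR adjusted p = 6.26e-07). CCR4 had a difference of 0.72 (SE 0.287, edgeR adjusted p = 0.0259). PAN2 (0.53, SE 0.283, edgeR adjusted p = 0.0950) and PAT1 (0.46, SE 0.293, edgeR adjusted p = 0.169) were not called. The design text says that labelled RNA was purified from total RNA extracts. With the culture (treatment and replicate number) as a replicate block PAN2 (0.54, edgeR adjusted p = 1.38e-03) and PAT1 (0.455, edgeR adjusted p = 0.0299) were called as well. That block gave 2148 calls over all features, in place of 1541, so the added member calls came with a higher background. Without the block, 54.6% of the 2821 features tested in both fractions were called higher and 0% lower. The median difference was 0.72, and 87.7% and 77.6% of features had smaller differences than XRN1 and CDC39. CCR4 lay at the median, and PAN2 and PAT1 below it. Every one of these features was listed for a low p-value in newly synthesized RNA, where no listed log2 fold change was above -2.2. Neither the one-sided count nor the sign of a member's difference is therefore independent of the listing, whose part was not tested.

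With median-of-ratios scaling within each fraction, which removes the shared fall of each, XRN1 (1.18, edgeR adjusted p = 1.72e-06) and CDC39 (0.68, edgeR adjusted p = 1.11e-04) kept their calls, and the values of CCR4, PAN2 and PAT1 turned below 0 and were not called. The CCR4 call was also lost in edgeR without DMSO replicate 1 of total RNA (adjusted p = 0.0813), DMSO replicate 2 of total RNA (0.0986), auxin replicate 2 of total RNA (0.166), DMSO replicate 2 of newly synthesized RNA (0.153) or auxin replicate 1 of newly synthesized RNA (0.0664). Without auxin replicate 2 of newly synthesized RNA, PAN2 (0.81) and PAT1 (0.63) were called, and without auxin replicate 1 of that fraction they stood at 0.31 and 0.30 and were not. With the authors' scaling, 4 of 11 other decay genes listed in both fractions were higher, all of the decapping class. They were DCS1 (1.66), YER146W (1.14, annotated as an Lsm ring protein), LSM2 (1.10) and SCD6 (0.99). The other 7, with 1 of the decapping class among them, were not called. Over all 2821 features 54.6% were called higher, so 4 of 11 is not above the background. DCS1, a scavenger of cap remnants that activates Xrn1, is likewise described with a paralog, and its value carries the same uncertainty.

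**Figure D4:**
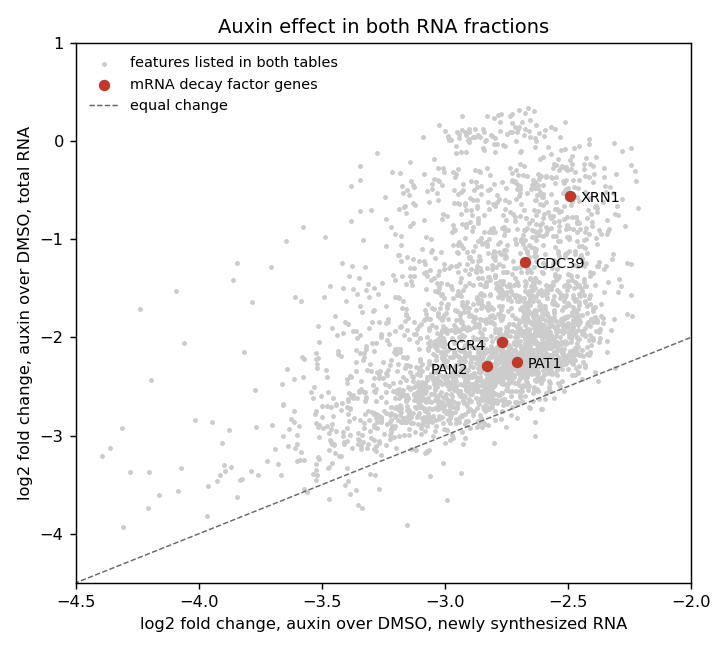
Log2 fold change of auxin over DMSO in total RNA (vertical) against that in newly synthesized RNA (horizontal), authors' scaling, for features listed in both tables (grey; those outside the axes are not drawn) and the 5 listed mRNA decay factor genes (red). The dashed line marks equal change. The 5 genes lie within -2.83 to -2.49 horizontally, where the listing admits no value above -2.20, and from -2.30 to -0.56 vertically.

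Without auxin, the members also differed in how much new RNA they had for their total RNA. In DMSO, newly synthesized over total RNA relative to the typical listed feature was 1.55 on the log2 scale for PAT1 (SE 0.140, edgeR adjusted p = 2.33e-04), 1.26 for CDC39 (SE 0.0612, edgeR adjusted p = 2.54e-05) and 0.84 for CCR4 (SE 0.0717, edgeR adjusted p = 1.84e-04). PAN2 was higher by 0.21 (SE 0.0512, edgeR adjusted p = 0.0124), and XRN1 stood at -0.28 (SE 0.0602, edgeR adjusted p = 7.81e-03). PAT1 thus had more new RNA for its total than 97.4% of 2821 features, and XRN1 more than 36.3%. The 5 listed members had 4 higher and 1 lower, and of all features 38.7% were called higher and 39.6% lower (78.3% in either direction). The calls of PAN2 and XRN1 were lost without DMSO replicate 1 of newly synthesized RNA (edgeR adjusted p = 0.112 and 0.0982) and without DMSO replicate 2 (0.114 and 0.112), while the log2 ratios hardly moved, to 0.21 in both fits for PAN2 and to -0.28 and -0.27 for XRN1.

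Longer features had more new RNA for their total RNA in DMSO: over 4 classes of increasing coding length, the median log2 ratio was -0.78, -0.11, 0.15 and 0.42. All 5 listed members are in the class of the longest 705 features (1938 bases and up), in which the middle 50% of ratios ran from 0.11 to 0.83. PAT1 and CDC39 stood above that range, PAN2 within it and XRN1 below it. CCR4 stood at its upper edge (0.84, and from 0.76 to 0.95 with 1 library left out). The part of length in these ratios was not tested. CDC39 combined a high share of new RNA with a smaller fall than the typical feature in total RNA, while PAT1 combined a high share with a larger fall. Over 2821 features the ratio had a Spearman rank correlation of -0.57 with the total RNA auxin effect. By sign PAT1 went with this trend and CDC39 against it, and the distance of either gene from the trend was not tested. Both quantities use the DMSO libraries of total RNA. The relative difference of PAT1 in total RNA ranged from -0.63 to -0.19 with 1 library left out.

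**Figure D5:**
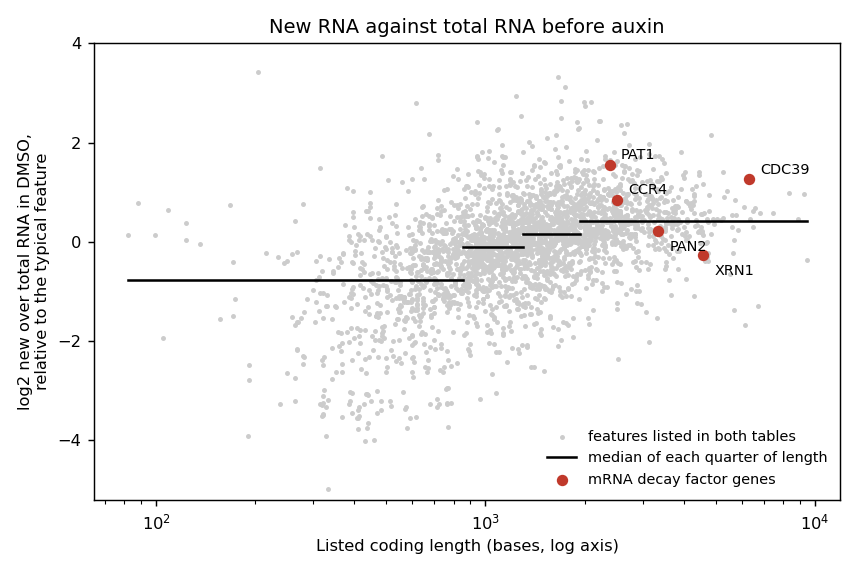
Log2 ratio of newly synthesized over total RNA in DMSO, relative to the typical feature, against listed coding length (log axis) for features listed in both tables (grey) and the 5 listed mRNA decay factor genes (red). Horizontal lines are medians of 4 length classes, from -0.78 in the shortest to 0.42 in the longest. PAT1, CDC39 and CCR4 lie above the line of their class, and PAN2 and XRN1 below it.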

How the data were processed

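Raw counts per feature were deposited by the authors as whole numbers, with 1 table per RNA fraction. Beside them stood a normalized signal and that signal per kb, per the file headers. Each library's normalized signal was its counts over a single constant, its size factor. S. cerevisiae cells were mixed with Schizosaccharomyces pombe cells at a ratio of 1 to 3 before extraction, and libraries were stranded and depleted of ribosomal RNA, per the labels' protocols. The submitters' processing notes name the sacCer3 build and bcl2fastq 2.17.1.14. Which aligner and counter were used, and whether strand was used in counting, is not given in the sources used here. Log2 fold changes and p-values of the authors, per the file headers, served only to describe the newly synthesized RNA table: its adjusted p-values fit ranks among 6707 features, so the 2822 listed are the 42.1% with the lowest p-values.

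Features averaging 10 counts or more across the libraries fitted were tested with edgeR 4.0.16 in R 4.3.3 (quasi-likelihood test, 2 auxin against 2 DMSO libraries, treatment as the only term), with the authors' size factors and again with median-of-ratios scaling. All 10 members passed this minimum in total RNA. The interaction of fraction and treatment used the 2821 features in both tables, and newly synthesized over total RNA in DMSO used median-of-ratios scaling. SE is the absolute log2 fold change over the root of the F statistic. Replicates of every group differed by more than counting error. Alternatives were TMM scaling, DESeq2 1.42.0, no minimum count, the replicate number as a block and each library left out. All members are named. Of the other decay genes, the 3 highest and 3 lowest called on the relative scale are named, and some further ones, chosen after their values were seen. DCP1, PAN2 and DHH1 have no name in the deposited annotation and are named here as members. Other decay genes without a deposited name are given as identifiers. The members and lists were chosen with earlier results of these data known. Sequences were not used here.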

Additional observations from a re-analysis of the deposited data

Results flagged for a closer look

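The auxin effect differed between the RNA fractions, by the test of that difference over all 8 libraries, for 3 of the 5 listed members. Of the 2821 features tested, 54.6% were called higher, so 3 of 5 is near the background. XRN1 fell less in total RNA than in newly synthesized RNA by 1.93 on the log2 scale (normalized counts at 61.8% and 73.9% of the DMSO mean in total RNA, and at 15.1% and 20.5% in newly synthesized RNA). CDC39 differed by 1.44 (39.3% and 45.8% in total RNA, and 13.6% and 17.7% in newly synthesized RNA). CCR4 differed by 0.72 (21.9% and 26.3% in total RNA, and 13.4% and 16.0% in newly synthesized RNA), which is the median of all features tested. These features were listed for low p-values in newly synthesized RNA, all with a deep fall there, so the sign of the differences is not independent of the listing. With median-of-ratios scaling within each fraction CCR4 stood at -0.052 and was not called, while XRN1 and CDC39 kept their calls. With the culture as a replicate block PAN2 and PAT1 were called as well, and 2148 of the 2821 features were called in place of 1541. No group held the 4 libraries needed to test for a library far from the others.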

How the results depend on the processing

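Over 82 results and 704 alternatives, 619 alternatives kept the direction and the side of the threshold or, for counts and medians, stayed within a margin. That margin was a fixed ratio for counts and, for medians, the SD between libraries of the members' median. Under it, 2148 calls in place of 1541 for the difference between fractions counted as kept. The scaling mattered most. With TMM scaling in place of the authors' size factors, total RNA had 3457 calls (1805 lower and 1652 higher) and 3 members lower and 3 higher, with medians of 0.023 over the members and -0.094 over all features. XRN1 (1.20), DHH1 (1.13), CDC39 (0.53), DCP1 (0.16) and LSM1 (0.11) then lay above 0. Newly synthesized RNA under TMM had 1302 calls (705 lower and 597 higher), with 0 members lower and 1 higher, a members' median of 0.080 and a median of -0.0095 over all features. XRN1 (0.29), CDC39 (0.11), PAT1 (0.080) and CCR4 (0.024) then lay above 0. TMM treats the typical feature as unchanged, so it removes a shared fall by construction. TMM in place of median-of-ratios scaling is the same fit in each fraction, so it repeats these values and counts again among the 704 alternatives. On the relative scale in total RNA, POP2 stood at -0.064 with TMM and at -0.0098 with no minimum count, and DESeq2 called 1 member lower. For total minus newly synthesized RNA, median-of-ratios scaling gave 536 features lower and 864 higher, medians of -0.052 over the members and -0.044 over all features, and values of -0.052 for CCR4, -0.22 for PAN2 and -0.32 for PAT1.

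With 1 library left out at a time, the members' median in total RNA ranged from -1.89 to -1.64. On the relative scale the number of members called lower moved, as did that over all features. There DCP2 ranged from -0.16 to 0.08, POP2 from -0.050 to 0.069 and LSM1 from -0.013 to 0.34. In newly synthesized RNA on the relative scale there were 701 to 1693 calls, 268 to 844 of them higher and 433 to 849 lower, with 1 to 2 members higher and 0 to 1 lower, and PAN2 from -0.14 to 0.046. For the difference between fractions, the number of calls moved both among the members and over all features. Its median ranged from 0.58 to 0.85 over the members and from 0.59 to 0.89 over all features. For newly synthesized over total RNA the members' median ranged from 0.76 to 0.95, and the number of calls moved among the members and over all features. Where a group kept 1 library, that library was assumed to vary like the others. The cause of these shifts was not tested.

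Deviations of same-numbered auxin and DMSO libraries had a correlation across features of -0.117 in total RNA and 0.052 in newly synthesized RNA, which does not show that the numbers pair them. Same-numbered libraries of total and newly synthesized RNA had a correlation of 0.097 in auxin and 0.163 in DMSO. With the culture as a replicate block, the difference between fractions was called for 5 members, PAN2 (0.54) and PAT1 (0.455) added, and for 2148 features in place of 1541. A block on the replicate number changed no member's call in the other comparisons.

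The member with the fewest counts, LSM1 (171 in 1 auxin library of total RNA), had the widest gap between its auxin libraries. The 5 members outside the table of newly synthesized RNA were not analysed in that fraction.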

Other observations

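By the deposited annotation 50 features, the 10 members among them, belong to the P-body, a set chosen after the values were seen. Of the 49 tested in total RNA relative to the typical feature, 21 were higher and 6 lower, with a median of 0.23. Over all features tested 32.4% were higher and 27.6% lower.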
